A study of Mus musculus with 6 samples.

Results

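The circadian clock genes Arntl, Clock, Per1, Per2, Per3, Cry1, Cry2, Nr1d1, Nr1d2 and Dbp were examined in AML-12 cells with less manganese superoxide dismutase (MnSOD). They were taken by symbol as genes of the clock, in a choice made with earlier results of these data known, and all 10 were among the 19938 genes measured with a single symbol, each by 1 probe set. AML-12 is a mouse hepatocyte line, derived from a mouse carrying a transforming growth factor alpha transgene. The siMnSOD group of 3 arrays came from cells carrying a retroviral hairpin against MnSOD, the product of Sod2, which was designed for a low level of silencing. The siScramble group of 3 arrays came from cells carrying a scrambled hairpin in the same vector. Cells of both groups had been transduced with retrovirus, selected with puromycin and grown in medium with fetal calf serum. Arrays were titled as biological replicates 1 to 3 and the cells came from different frozen batches, but the sources do not say what a number marks or whether the samples came from separate transductions, so the p-values reflect only how these samples spread, which may be technical. The sources used here give neither a time of harvest nor a synchronising treatment, and each array was thus a reading at an unstated point of any daily cycle.

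The mammalian clock is a loop of transcription. CLOCK and BMAL1, the product of Arntl, bind E-box sequences together and activate the Per, Cry, Nr1d and Dbp genes. PER and CRY proteins return to the nucleus and inhibit CLOCK and BMAL1, while REV-ERB alpha and beta, the products of Nr1d1 and Nr1d2, repress Arntl through ROR response elements. DBP activates genes with D-boxes, Per genes among them. In the liver the clock gives a daily rhythm to genes of sugar, lipid, bile acid and drug metabolism.

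Sequence before the gene start was taken from RefSeq (GRCm38.p6) for 9 of the 10 genes, in 13 windows of 250 bases before to 50 bases after an annotated start. Windows were searched on both strands for the E-box CACGTG, the related E-prime box CACGTT, the D-boxes TTATGTAA and TTACGTAA, the cyclic AMP response element TGACGTCA and the ROR response element. The E-box is its own reverse complement, and no matches of different motifs overlapped. The windows of 5 genes held a match, shown here because the loop acts on its own genes through elements of such kinds. Whether it uses these matches was not tested. Capitals mark the matches in the 250 bases before the start, and AACGTG is the E-prime box on the opposite strand. The bases lie at chr11:69098699-69098948, plus strand, for the first of the Per1 starts, at chr4:151044666-151044915, minus strand, for Per3, at chr10:85185055-85185304, minus strand, for Cry1, at chr2:92434070-92434319, minus strand, for Cry2, and at chr11:98775378-98775627, minus strand, for Nr1d1.
Per1: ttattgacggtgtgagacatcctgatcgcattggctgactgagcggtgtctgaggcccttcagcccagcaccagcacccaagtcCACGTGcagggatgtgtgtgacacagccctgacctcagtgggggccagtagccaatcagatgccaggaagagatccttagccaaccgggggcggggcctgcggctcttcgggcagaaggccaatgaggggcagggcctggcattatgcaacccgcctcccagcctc
Per3: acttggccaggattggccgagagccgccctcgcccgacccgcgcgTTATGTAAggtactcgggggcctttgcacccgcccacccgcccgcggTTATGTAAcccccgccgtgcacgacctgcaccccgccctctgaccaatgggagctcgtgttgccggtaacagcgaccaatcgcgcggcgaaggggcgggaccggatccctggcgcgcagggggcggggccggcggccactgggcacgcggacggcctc
Cry1: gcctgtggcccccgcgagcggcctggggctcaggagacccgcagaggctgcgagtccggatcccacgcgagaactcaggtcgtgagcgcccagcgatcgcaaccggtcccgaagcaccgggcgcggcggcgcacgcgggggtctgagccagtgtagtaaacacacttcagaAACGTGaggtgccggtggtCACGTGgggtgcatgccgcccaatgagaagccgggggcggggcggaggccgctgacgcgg
Cry2: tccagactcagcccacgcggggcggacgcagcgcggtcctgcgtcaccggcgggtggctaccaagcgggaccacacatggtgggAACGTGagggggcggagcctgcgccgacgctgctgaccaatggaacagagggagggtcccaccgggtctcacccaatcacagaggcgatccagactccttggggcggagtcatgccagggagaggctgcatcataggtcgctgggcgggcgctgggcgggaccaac
Nr1d1: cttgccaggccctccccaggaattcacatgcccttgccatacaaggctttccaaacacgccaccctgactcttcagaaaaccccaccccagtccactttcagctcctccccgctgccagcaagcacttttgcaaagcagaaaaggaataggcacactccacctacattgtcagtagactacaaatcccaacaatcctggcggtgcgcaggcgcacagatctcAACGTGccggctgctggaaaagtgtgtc
Per1 and Cry1 each held 1 E-box, at −166 to −161 and at −60 to −55 from the start. Cry1, Cry2 and Nr1d1 each held 1 E-prime box, and Per3 held 2 copies of the D-box TTATGTAA. Among all 32851 promoter windows of the table, 7.15% held the E-box, 4.68% the E-prime box, 0.938% the D-box TTATGTAA, 0.119% the D-box TTACGTAA, 1.79% the cyclic AMP response element and 0.298% the ROR response element. The windows of Arntl, Clock, Nr1d2 and Dbp, and that of the other Per1 start, held no match to the searched forms. Looser forms of the ROR response element, and sequence outside the windows, were not searched. The lack of a match therefore does not show that a gene lacks an element. A match is a string of letters and no measurement of binding.

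Values are given as normalized intensities, linear in brightness, and differences are siMnSOD minus siScramble on the log2 scale. All 10 genes were above the background guide of 19.4 intensity units on each of the 6 arrays, a guide set at the 95th percentile of 1027 olfactory receptor genes. Array medians ran from 26.8 to 33.6 intensity units. Replicates 3 stood apart from replicates 1 and 2 of their own group, with Pearson r over all probe sets of 0.9762 and 0.9763 in siScramble and 0.9843 and 0.9847 in siMnSOD, against 0.9934 and 0.9921 between replicates 1 and 2. Sod2 retained 32.4% of the control level, with a log2 difference of −1.63 (SE 0.30, adjusted p = 0.037 in limma). Of 12 measured hepatocyte markers 8 were above the guide, Apob, Hnf4a, Krt8 and Krt18 well above it, whereas the defining hepatocyte genes Alb, Ttr, Cps1 and Asgr1 lay under it in both groups. The 12 markers summed to 14428 to 16986 intensity units in siMnSOD and 9054 to 14285 in siScramble, where replicate 3 was lowest. Krt8 and Krt18 led the sum on every array. Hnf4a, a master regulator of hepatocyte genes, was the only one of the 12 to pass, rising by 1.09 (SE 0.14, adjusted p = 0.013 in limma). The summed intensity of 4 biliary and progenitor markers was 3894 to 4180 in siMnSOD and 1904 to 3292 in siScramble, again lowest on siScramble replicate 3. Krt19 led this sum and did not pass the test, while Sox9 fell (−0.86, adjusted p = 0.027 in limma). The part of these markers in the results was not tested. Sod2, Hnf4a and Sox9 each lost the call without siMnSOD replicate 1 or 2 or siScramble replicate 2, and Sod2 and Sox9 also without siScramble replicate 1 (highest adjusted p 0.13, 0.08 and 0.15 in limma). Sod2 also lost it after centring arrays on their medians (0.069) and with all probe sets tested (0.063). The sums of 7 leukocyte markers (306 to 343 against 286 to 310), 5 endothelial markers (76.8 to 100 against 78 to 92.8) and 6 stellate cell and fibroblast markers (130 to 164 against 136 to 160) overlapped between the groups.

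Per1 was lower in the knockdown and was the only one of the 10 genes to pass the test over all genes. None of the 10 was higher, even at an unadjusted p under 0.05 in limma, which 8.61% of all genes met. The positive arm, Arntl and Clock, the inhibitor Cry2 and the REV-ERB gene Nr1d2 also read lower on average without passing. Their log2 differences were −1.03, −0.84, −0.61 and −0.58. Per3, Nr1d1 and Dbp had mean differences near 0, with control arrays on both sides of the knockdown arrays.

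**Figure D1:**
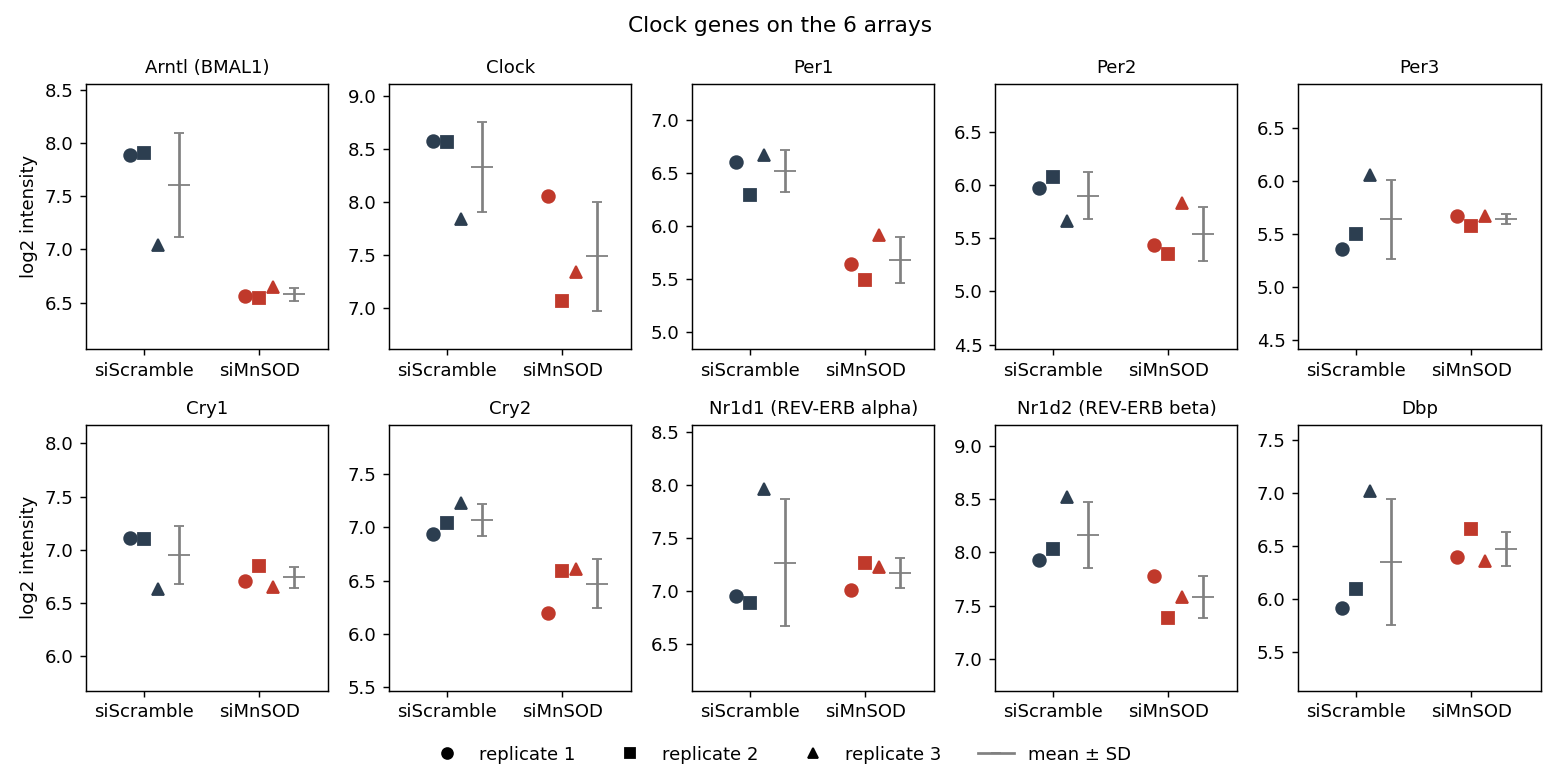
Log2 intensity (vertical axis, equal span in each panel) of the 10 clock genes on the 3 siScramble and 3 siMnSOD arrays, with replicate numbers as marker shapes and the mean ± SD in grey. The siMnSOD arrays lie below every siScramble array for Arntl, Per1, Cry2 and Nr1d2, and siScramble replicate 3 lies away from siScramble replicates 1 and 2 for Arntl, Nr1d1 and Dbp.

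The period genes encode the PER proteins that carry the negative feedback, and Per1 is also induced at once by serum, cyclic AMP and glucocorticoids. Per1 read 49.8, 45 and 60.5 intensity units in siMnSOD replicates 1, 2 and 3, and 96.8, 78.3 and 102 in siScramble replicates 1, 2 and 3. Every knockdown array lay below every control array. The level fell to 56% of the control, a log2 difference of −0.84 (SE 0.16, 95% interval −1.21 to −0.46, adjusted p = 0.04 in limma), and the difference was −0.96, −0.80 and −0.75 within replicate numbers 1, 2 and 3. A two-sided exact permutation test over the arrays gave p = 0.1, and no smaller p can be had from groups of 3. In the fit with the replicate block the adjusted p was 0.016. The call was lost without siMnSOD replicate 1 or 2 (adjusted p = 0.14 and 0.18), without siScramble replicate 1 or 2 (0.15 and 0.084), when all probe sets were tested (0.069) and with a trended robust prior (0.054).

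Per2, the paralogue of Per1, read 43.3, 40.8 and 56.8 intensity units in siMnSOD and 62.7, 67.5 and 50.5 in siScramble replicates 1, 2 and 3. The groups overlapped, because siScramble replicate 3 lay below siMnSOD replicate 3. The log2 difference was −0.36 (SE 0.17, 95% interval −0.77 to 0.05, adjusted p = 0.39 in limma). Within replicate numbers it was −0.53 and −0.72 in 1 and 2 and 0.17 in 3. Per3 differed least of the 10 genes between the group means. It read 51, 47.8 and 50.8 in siMnSOD and 41.1, 45.3 and 66.5 in siScramble, so that the 3 knockdown arrays lay between the control arrays. Its log2 difference was 0.00 (SE 0.19, 95% interval −0.44 to 0.44).

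The cryptochromes Cry1 and Cry2 are the stronger repressors of CLOCK and BMAL1. Cry2 read 73.3, 96.2 and 97.9 intensity units in siMnSOD and 123, 131 and 151 in siScramble, with no overlap. Its log2 difference was −0.61 (SE 0.15, 95% interval −0.97 to −0.24), and it was −0.75, −0.45 and −0.62 within replicate numbers 1, 2 and 3. The adjusted p in limma was 0.089, which misses the threshold of 0.05, and 0.034 in the fit with the replicate block, which passes it. This fit treats arrays of the same number as a pair. The sources do not say that equal numbers mark pairs, so calls of this fit, here and below, depend on that pairing. Cry1 read 105, 116 and 101 in siMnSOD and 138, 137 and 99.3 in siScramble. The control replicates 1 and 2 were above all knockdown arrays and control replicate 3 was below them, and the log2 difference was −0.21 (SE 0.16, 95% interval −0.58 to 0.16, adjusted p = 0.73 in limma).

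Arntl had the largest mean difference of the 10 genes. It read 94.4, 93.2 and 100 intensity units in siMnSOD and 237, 240 and 132 in siScramble replicates 1, 2 and 3. The knockdown arrays lay close together, all below the controls, and control replicate 3 lay between them and the other controls. The log2 difference was −1.03 (SE 0.24, 95% interval −1.59 to −0.46), or 49.1% of the control, with an adjusted p of 0.07 in limma and of 0.06 with the replicate block. It was −1.33 and −1.36 within replicate numbers 1 and 2 and −0.39 within number 3. Without siScramble replicate 3 it was −1.31 (SE 0.10, adjusted p = 0.0014 in limma). Arntl was not called when any other single array was left out, where the adjusted p ran from 0.14 to 0.25. Clock, which encodes the partner of BMAL1, read 268, 134 and 162 in siMnSOD and 381, 379 and 229 in siScramble. Here the groups overlapped, since siMnSOD replicate 1 was above siScramble replicate 3. The log2 difference was −0.84 (SE 0.31, 95% interval −1.56 to −0.11, adjusted p = 0.23 in limma), with −0.51, −1.49 and −0.50 within replicate numbers 1, 2 and 3.

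The REV-ERB genes form the second loop. Nr1d2 read 220, 166 and 191 intensity units in siMnSOD and 244, 261 and 366 in siScramble, with no overlap. Its log2 difference was −0.58 (SE 0.19, 95% interval −1.02 to −0.14, adjusted p = 0.17 in limma), and unlike that of Arntl it was larger within number 3 (−0.94) than within numbers 1 and 2 (−0.15 and −0.65). Nr1d1 read 128, 155 and 150 in siMnSOD and 124, 118 and 250 in siScramble. The knockdown arrays were above control replicates 1 and 2 and below control replicate 3. The log2 difference was −0.10 (SE 0.29, 95% interval −0.78 to 0.58), and it was 0.25 without siScramble replicate 3, with an adjusted p of 0.30 in limma.

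Dbp, an output gene driven through E-boxes, had the same arrangement as Nr1d1. It read 84.3, 101 and 82.2 intensity units in siMnSOD and 60.6, 68.8 and 130 in siScramble. The knockdown lay above control replicates 1 and 2 and below control replicate 3. The log2 difference was 0.12 (SE 0.28, 95% interval −0.55 to 0.80) over all arrays, 0.48 and 0.56 within numbers 1 and 2, and −0.66 within number 3.

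**Figure D2:**
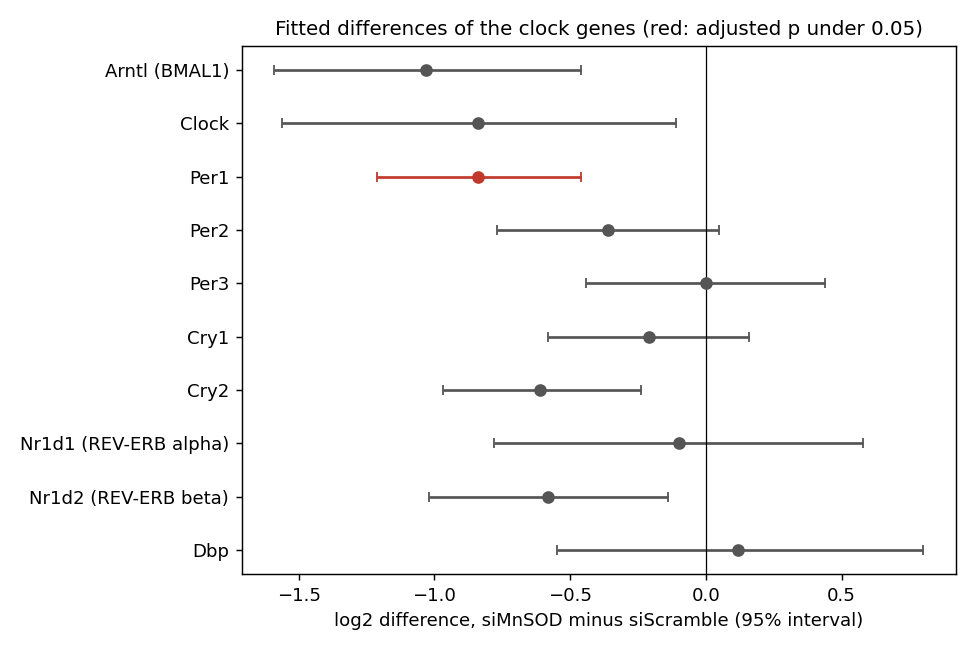
Fitted log2 difference (horizontal axis, siMnSOD minus siScramble) of each clock gene with its 95% interval, from 3 arrays per group. Per1, in red, passes the test over all genes, and the intervals of Arntl, Clock, Cry2 and Nr1d2 also lie below 0 before adjustment.

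Read against all genes, 1 of the 10 clock genes was called lower and none higher, where 1.58% of all genes were called lower and 2.17% higher in limma. At an unadjusted p under 0.05, 5 of the 10 were lower and none higher, against 8.06% and 8.61% of all genes. With the replicate block 2 were called lower, Per1 and Cry2, and none higher, against 3.12% and 4.02% of all genes. Without siScramble replicate 3 again 2 were lower, Arntl and Per1, and none higher, against 5.61% of all genes in either direction. Groups did not overlap, with the knockdown lower, for 4 of the 10 (Arntl, Per1, Cry2 and Nr1d2) and for 9.73% of all genes. Negative differences were seen in 8 of the 10 and in 47.7% of all genes. The median difference was −0.47 over the 10 clock genes and 0.01 over all genes. The 10 genes are parts of 1 loop and are not independent of each other.

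The clock genes differed by replicate number in a way that the group means do not show. For Per2, Per3, Cry1, Nr1d1 and Dbp, 5 of the 10, the difference within number 3 had the opposite sign to those within numbers 1 and 2, as it had for 25.1% of all genes. The SD was larger in the controls than in the knockdown for 6 of the 10 clock genes and for 53.8% of all genes. Control replicate 3 was above the mean of control replicates 1 and 2 by 1.04 for Nr1d1, 1.01 for Dbp, 0.62 for Per3 and 0.54 for Nr1d2 on the log2 scale. It was below that mean for Arntl (−0.86), Clock (−0.73), Cry1 (−0.47) and Per2 (−0.36). For Per1 and Cry2 it was above by 0.22 and 0.25. Over all genes the same difference had a median of 0.10 and an SD of 0.49. In the knockdown the differences of replicate 3 from the mean of the others ran from −0.23 for Clock to 0.43 for Per2, with an SD of 0.35 over all genes. Control replicate 3 lay outside the range of the other 5 arrays for 7 of the 10 clock genes and for 46.4% of all genes. Whether the difference between the groups itself differs by number was not tested.

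**Figure D3:**
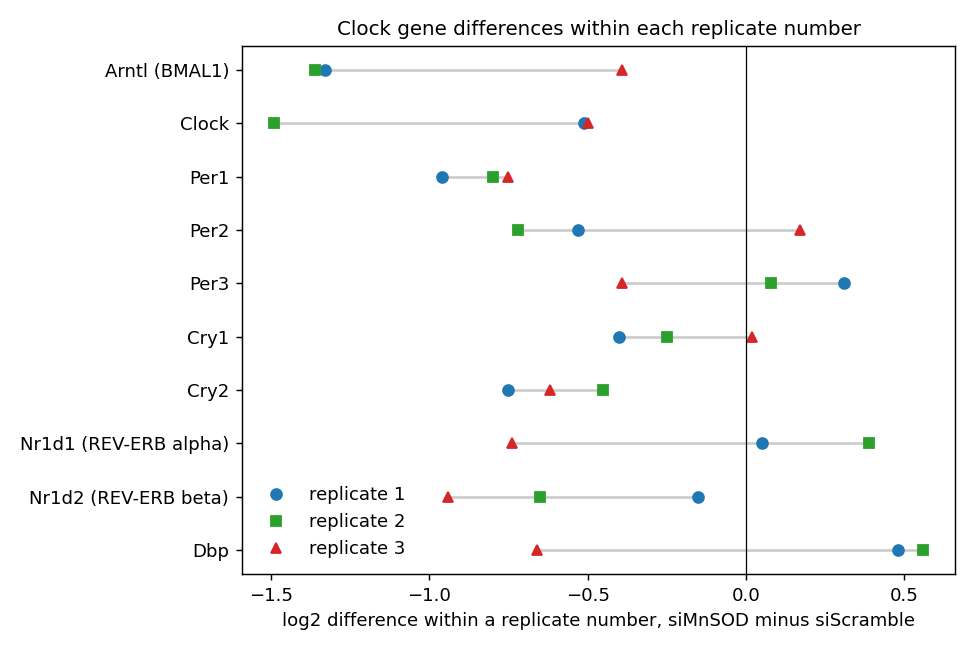
Log2 difference between the siMnSOD and the siScramble array of the same replicate number (horizontal axis) for each clock gene, with 1 marker per number and a grey line over their range. Per1 and Cry2 keep similar values in all 3 numbers, while the red triangle of number 3 lies on the other side of 0 from numbers 1 and 2 for Per2, Per3, Cry1, Nr1d1 and Dbp.

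In replicates 1 and 2 alone, 5 clock genes were called lower and 1 higher, against 9.69% and 11.8% of all genes. Those lower were Arntl (−1.34, adjusted p = 0.00066), Per1 (−0.88, 0.008), Per2 (−0.63, 0.0057), Cry1 (−0.32, 0.047) and Cry2 (−0.60, 0.039), and Dbp was higher (0.52, 0.037), all in limma. These arrays lack the spread that replicates 3 add, and their calls hold for these 4 arrays.

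The genes nearest in pattern to the clock genes were sought among 12193 genes above the guide. The clock genes, the clock-related genes described below, the cell type markers and genes with provisional names were left out, so none could be named. Nearness was the root mean square difference between mean-centred log2 profiles over the 6 arrays. Arntl was nearest to Ero1a, an oxidase of the endoplasmic reticulum (0.039), and Leprotl1 (0.072). Per1 was nearest to Klf4, a Krüppel-like transcription factor gene (0.047), and Tbc1d12 (0.10). Nr1d1 was nearest to Btbd2 (0.064) and Rin2 (0.065), Dbp to Galm (0.088) and Yipf1 (0.10), and Nr1d2 to Snapc3 (0.057) and Purg (0.063). Cry2 was nearest to Maml1 (0.076) and Lman2l (0.094), and Clock to Rsrc2 (0.073) and Phf20l1 (0.097). Per2, Per3 and Cry1 varied by under 1 on the log2 scale over the arrays and were not matched.

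Other genes of the clock pathway were grouped by role. Among 11 measured relatives of the loop genes, 1 rose and 1 fell in limma (2.17% and 1.58% of all genes). Their median difference was −0.34. At an unadjusted p under 0.05, 1 was higher and 3 lower (8.61% and 8.06% of all genes). Rorb, a nuclear receptor that activates through ROR response elements, fell by 0.84 (SE 0.12, adjusted p = 0.017 in limma), from a mean log2 level of 6.25 to 5.41. Timeless, which in mammals acts mainly at the replication fork, rose by 1.46 (SE 0.29, adjusted p = 0.046 in limma). Both lost their calls without siMnSOD replicate 1 or 2 or siScramble replicate 1 or 2, and Timeless also without siMnSOD replicate 3 (highest adjusted p 0.082 and 0.21), and both after centring arrays on their medians (0.06 and 0.08). Timeless also lost its call with all probe sets tested (0.077) and with a pseudocount of 16 (0.051). The repressor gene Bhlhe41 had −0.86 (SE 0.18). Its adjusted p was 0.052 in limma and 0.034 in the fit with the replicate block. The D-box repressor gene Nfil3, itself repressed by REV-ERB, had −0.90 (SE 0.38, adjusted p = 0.31), and the repressor gene Bhlhe40 had 0.17 (SE 0.28, adjusted p = 0.99 in limma). Ciart, which encodes a repressor of CLOCK and BMAL1, was picked out after its values were seen. It read 5.76, 6.38 and 5.97 on the log2 scale in siMnSOD and 8.47, 8.05 and 6.19 in siScramble, so control replicate 3 again lay near the knockdown (−1.54, SE 0.56, adjusted p = 0.22 in limma). With the replicate block 1 of the 11 rose, again Timeless, and 3 fell (4.02% and 3.12% of all genes). Those lower were Rorb, Bhlhe41 and the nuclear receptor gene Rora (−0.56, adjusted p = 0.041). Rora lay under the background guide in siMnSOD replicates 1 and 2 (17 and 16.4 intensity units), so that the size of its difference is not well measured.

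None of 17 measured kinases and ubiquitin ligases of the clock passed in limma, and their median was −0.20. At an unadjusted p under 0.05, Csnk1e and Huwe1, 2 of the 17, were lower and none was higher, where 8.06% and 8.61% of all genes were. The 3 brightest were the casein kinase genes Csnk2a1 (−0.15, SE 0.10), Csnk1a1 (−0.22, SE 0.11) and Csnk2a2 (−0.17, SE 0.14). With the replicate block 1 of the 17 fell and none rose (3.12% and 4.02% of all genes). The one that fell was the PER kinase gene Csnk1e (−0.47, adjusted p = 0.047). Among 18 cofactors of clock complexes, with a median of −0.04, 1 fell and none rose in limma (1.58% and 2.17% of all genes). At an unadjusted p under 0.05, 3 were lower and 2 higher (8.06% and 8.61% of all genes). The gene that passed was Kdm5a. It encodes a histone demethylase that also binds CLOCK and BMAL1, and its log2 difference was −0.80 (SE 0.11, adjusted p = 0.015 in limma). Its call was lost without siMnSOD replicate 1 or 2 or siScramble replicate 1 or 2 (highest adjusted p 0.093) and after centring arrays on their medians (0.058). With the block 1 of the 18 rose and 2 fell (4.02% and 3.12% of all genes). The histone methyltransferase gene Ezh2 rose (0.86, adjusted p = 0.041), and Kdm5a and the methyltransferase gene Kmt2a (−0.46, adjusted p = 0.042) fell. The brightest of the others were Ddb1 (0.04, SE 0.13), Nono, whose product binds PER proteins (0.37, SE 0.11, adjusted p = 0.14), and Ddx5 (−0.37, SE 0.25).

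Of 15 measured output genes of the liver clock, 9 were above the guide and none passed (median −0.02). At an unadjusted p under 0.05, 2 of the 15 were higher (Wee1 and Alas1) and 2 lower (Ppargc1a and Insig2), against 8.61% and 8.06% of all genes. The brightest was Nampt, the rate-limiting enzyme of NAD salvage (−0.10, SE 0.27). Next were the cell cycle kinase gene Wee1 (0.79, SE 0.23, adjusted p = 0.12 in limma) and Insig2, a brake on sterol synthesis (−0.31, SE 0.10, adjusted p = 0.15). With the block 1 of the 15 fell and none rose (3.12% and 4.02% of all genes). The one that fell was the coactivator gene Ppargc1a (−0.60, adjusted p = 0.037).

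Genes that carry signals into the clock include transcription factors and kinases that respond to serum, cyclic AMP and glucocorticoids. Of 17 measured, 3 fell and 1 rose in limma (1.58% and 2.17% of all genes), and the median was −0.38. At an unadjusted p under 0.05, 11 were lower and 1 higher (8.06% and 8.61% of all genes). With the block 6 fell and 1 rose (3.12% and 4.02% of all genes). Those 6 included Nr3c1, Tsc22d3 (−0.64, adjusted p = 0.042) and Crem (−0.50, adjusted p = 0.035). The immediate early genes Egr1 (−1.49, SE 0.16, adjusted p = 0.0082 in limma) and Nr4a1 (−0.80, SE 0.10, adjusted p = 0.013) fell. The glucocorticoid-responsive gene Klf9 fell by 1.22 (SE 0.14, adjusted p = 0.0091), whereas Fkbp5, also induced by glucocorticoids, rose by 1.18 (SE 0.11, adjusted p = 0.0054). Egr1 kept its call whichever array was left out, Fkbp5 lost it without siMnSOD replicate 2 (adjusted p = 0.051), Klf9 without siMnSOD replicate 1 or 2 or siScramble replicate 2 (highest 0.065), and Nr4a1 without siMnSOD replicate 1 or 2 or siScramble replicate 1 or 2 (highest 0.082). The brightest that did not pass were the kinase genes Sik1 (−0.37, SE 0.19) and Sik2 (−0.38, SE 0.14), and Creb1 (−0.47, SE 0.18), which encodes the factor that binds the cyclic AMP response element. The glucocorticoid receptor gene Nr3c1, picked out after its values were seen, had −0.49 (SE 0.12, adjusted p = 0.074 in limma, 0.049 with the block).

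**Figure D4:**
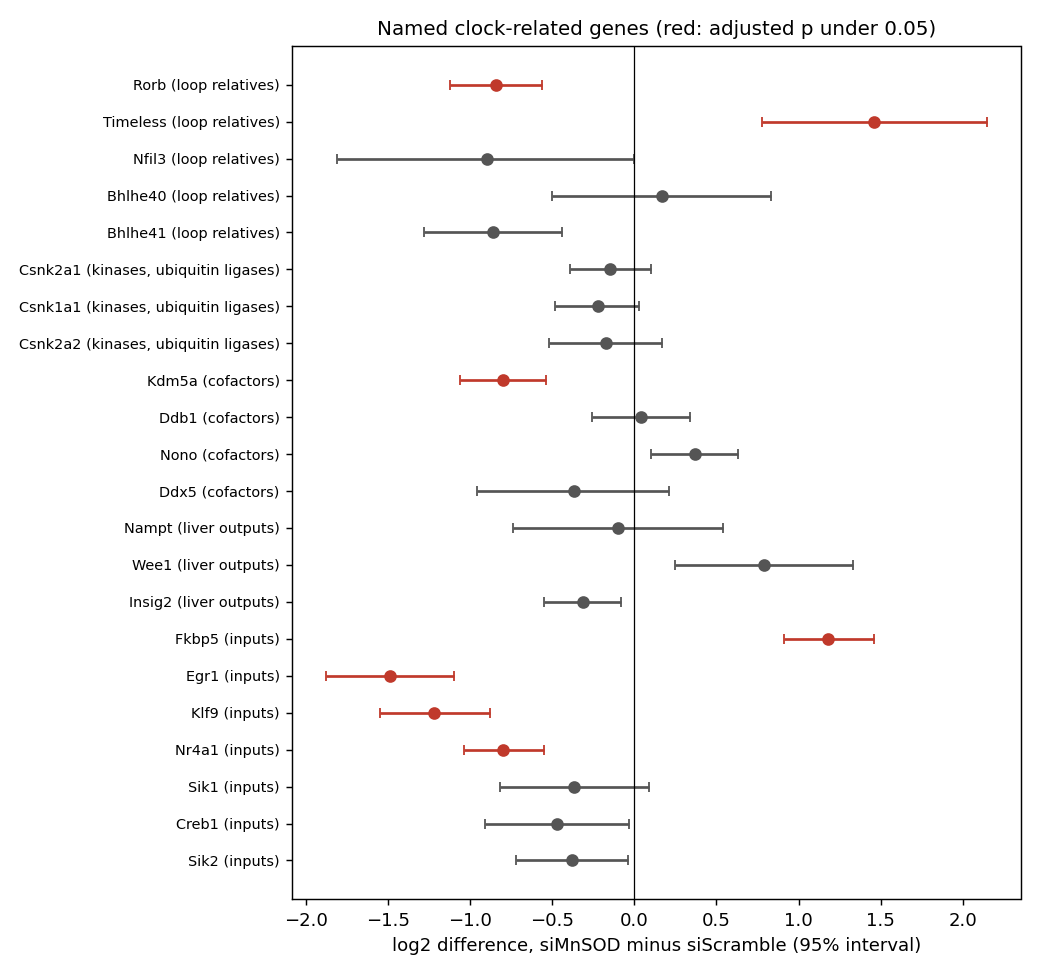
Fitted log2 difference (horizontal axis, siMnSOD minus siScramble, 95% interval, 3 arrays per group) of the clock-related genes named by rule, with the group of each in brackets and genes past the test over all genes in red. Egr1, Klf9, Nr4a1, Rorb and Kdm5a lie below 0 and Timeless and Fkbp5 above it.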

How the data were processed

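Total RNA of 6 samples was hybridised to Affymetrix Mouse Gene 1.0 ST chips, 1 for each sample. The deposited intensity values are linear and already normalized. RMA is named for this step per the submitters' processing notes and MAS5 per the labels, and the sources used here give no version. The number of arrays limits the precision.

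Of 35557 probe sets, 21789 had 1 gene symbol in the platform's annotation table, 1621 had several and 12147 had none. For 21698 of the first, the symbol was brought up to date by Entrez number from a RefSeq gene table (GRCm38.p6). The brightest probe set stood for a gene. Log2 intensities of 21559 rows (several-symbol probe sets tested, never named) entered lmFit and eBayes of limma 3.58.1 (R 4.3.3), with group as the sole term and without a filter or pseudocount. Benjamini-Hochberg adjustment ran over all of these rows, with a threshold of 0.05. Counts are over the 19938 genes with 1 symbol. The limma fit was tested on simulated data with independent noise and no outlying arrays. The other steps were not tested in this way.

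The clock genes, the lists and the background guide were chosen with earlier results of these data known. From each list every gene past the test (up to 8, by smallest p) and the 3 with the highest mean among the others were named, and further genes, those behind small counts included, after their values were seen. For each clock gene with a log2 range of at least 1 over the arrays, the 2 nearest genes in pattern outside the lists were named. Listed genes without a probe set of 1 symbol were not analysed here.

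To see whether the replicate numbers pair the samples, each array's deviation from its group mean was correlated between the groups over the tested rows. It came to 0.298, 0.286 and 0.559 for numbers 1, 2 and 3. By the rule that every value exceed 0.1, the numbers were treated as pairs in the alternative fit with the replicate block. The main fit did not pair the arrays. Crossed numbers 1 and 2 gave higher values (0.465 and 0.407), so a swap of numbers 1 and 2 would pass the same rule. The check thus cannot show that equal numbers mark pairs. Alternatives were a replicate block in the fit, median centring, quantile normalization, the mean of probe sets, all probe sets, a filter at the guide, a pseudocount of 16, a trended robust prior, array weights, replicates 1 and 2 only, and leaving out each array.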

Additional observations from a re-analysis of the deposited data

How the results depend on the processing

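Over 16 alternatives, Per1 kept its negative sign in all and its call in 10, and the adjusted p ran from 0.0013 to 0.18. It was lost when all probe sets were tested (−0.84, adjusted p = 0.069 in limma) and with the trended robust prior (−0.84, 0.054). Arntl, Clock, Per2, Cry1, Cry2 and Nr1d2 also kept their negative sign in all 16. With array weights, which gave replicates 3 weights of 0.2505 and 0.1554 and the others at least 1.354, calls were gained by Arntl (−1.31), Clock (−0.87), Per2 (−0.58), Cry1 (−0.34), Cry2 (−0.64) and Dbp (0.45). In replicates 1 and 2 alone they were gained by Arntl (−1.34), Per2 (−0.63), Cry1 (−0.32), Cry2 (−0.60) and Dbp (0.52). The replicate block added Cry2 (−0.61) and changed no other call among the clock genes. Nr1d1 turned from −0.10 to 0.22 in replicates 1 and 2 and to 0.16 with array weights, and Per3, at 0.00, turned to −0.01 with the pseudocount. The cause of these changes was not tested.

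The clock genes called lower numbered 2 with the block, 0 with all probe sets, 0 with the trended robust prior, 5 in replicates 1 and 2 and 6 with array weights (where 11% of all genes were called lower and 12.5% higher). Those called higher numbered 1 in each of the last 2 settings. Of the related genes, 2 were higher and 5 lower. These became 1 and 3 after median centring, 13 lower with the block, 1 higher with all probe sets, 1 and 10 with the pseudocount, 10 and 33 in replicates 1 and 2, and 9 and 33 with array weights. Over all genes, 432 were higher and 316 lower, and this became 801 and 623 with the block, 140 lower after centring, 278 and 154 with all probe sets, 2343 and 1932 in replicates 1 and 2, and 2486 and 2188 with array weights. The share of calls that were higher was 57.8%, against 72.3% after median centring.

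Leaving out 1 array at a time gave ranges of −1.31 to −0.88 for Arntl, −0.95 to −0.74 for Per1, −0.14 to 0.21 for Per3, −0.29 to 0.25 for Nr1d1 and −0.09 to 0.46 for Dbp. The clock genes called lower ranged from 0 to 2 and higher stayed at 0. The related genes called higher ranged from 0 to 9 and lower from 1 to 15, and all genes from 52 to 1119 higher and from 25 to 1119 lower.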
